A study of Rattus norvegicus with 4 samples.

Results

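The genes described here are those of glycolysis and of the cellular response to low oxygen. A list of 42 such genes was taken, and those with at least 40 counts summed over the 4 libraries were compared, which left 38 of the 42, out of 12228 genes with that many counts and 34034 genes in the table. Expression was measured in mesenchymal stem cells from rat femurs, kept in osteogenic induction medium and sampled at day 1, after 24 h of treatment. The groups were senescent cells with trichostatin A plus phenamil (TSA + phenamil), senescent cells with trichostatin A alone (TSA), senescent cells with vehicle (senescent control) and young cells with vehicle (young control), with 1 library each and all in 1 batch per the labels. Trichostatin A inhibits histone deacetylases, and phenamil is a derivative of the diuretic amiloride. The series' design text gives benzyl ether where the sample labels give phenamil, and the labels are followed here. The osteogenic medium was common to all groups, no library held phenamil alone, and the sources used here do not give the doses, the number of animals or the way the cells became senescent.

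Glycolysis breaks glucose down to pyruvate in the cytosol with a small yield of ATP, and lactate dehydrogenase turns pyruvate into lactate that leaves the cell. Mesenchymal stem cells are known to lean on this route in culture and to shift towards mitochondrial respiration as they become osteoblasts. When oxygen is short, the transcription factor HIF-1, whose alpha subunit is otherwise hydroxylated and degraded, binds hypoxia response elements and induces most glycolytic enzymes, glucose and lactate transporters, and genes of blood vessel growth, mitophagy and collagen hydroxylation.

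The core of a hypoxia response element is ACGTG or GCGTG, so both were sought on both strands in RefSeq promoter windows (build GRCr8, 250 bases before to 50 bases after a gene's start). Of the 38 genes, 34 had a window, and Bnip3l, Ndrg1, Pgk1 and Slc2a3 had none. ACGTG was found for 23 of these 34 genes (67.65%), against 26.92% of the 9856 genes with at least 40 counts and a window, and 20.93% of all 27453 genes with one. GCGTG was found for 20 of 34 (58.82%), against 51.85% of the genes with at least 40 counts. The median GC content of the windows was 64.33% for the 34 genes and 61.0% for the 9856. Where ACGTG lies in CACGTG it matches on both strands and was counted on each. A match describes the letters in this window and is not evidence of binding, and the list was drawn up from genes known as HIF targets in part. Windows are shown for the 4 genes on which the results below turn most: Ldha and Ankrd37, whose windows hold 6 and 5 matches, and Slc16a3 and Eno3, whose windows hold none. Capitals mark matches to ACGTG or GCGTG on either strand, and each sequence runs 5′ to 3′ on the gene's strand. Ldha lies at chr1:106507842-106508141, plus strand, Ankrd37 at chr16:53001257-53001556, plus strand, Slc16a3 at chr10:106712078-106712377, plus strand and Eno3 at chr10:55868936-55869235, plus strand.
Ldha: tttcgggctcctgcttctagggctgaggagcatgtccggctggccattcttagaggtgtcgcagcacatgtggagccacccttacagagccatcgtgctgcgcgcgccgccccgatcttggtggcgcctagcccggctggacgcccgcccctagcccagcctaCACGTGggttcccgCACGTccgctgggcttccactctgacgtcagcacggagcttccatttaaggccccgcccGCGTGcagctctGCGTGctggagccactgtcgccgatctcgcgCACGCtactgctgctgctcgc
Ankrd37: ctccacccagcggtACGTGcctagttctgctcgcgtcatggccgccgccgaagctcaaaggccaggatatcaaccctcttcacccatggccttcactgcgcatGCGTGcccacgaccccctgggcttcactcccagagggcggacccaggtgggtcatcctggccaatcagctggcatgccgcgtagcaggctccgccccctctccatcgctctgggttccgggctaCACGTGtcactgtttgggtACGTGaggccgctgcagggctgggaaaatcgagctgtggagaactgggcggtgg
Slc16a3: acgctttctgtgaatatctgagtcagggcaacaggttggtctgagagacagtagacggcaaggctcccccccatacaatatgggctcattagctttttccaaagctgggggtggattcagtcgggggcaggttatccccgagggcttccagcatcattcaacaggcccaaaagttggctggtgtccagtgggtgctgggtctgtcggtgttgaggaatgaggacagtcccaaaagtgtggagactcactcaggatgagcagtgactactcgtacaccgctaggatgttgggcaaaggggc
Eno3: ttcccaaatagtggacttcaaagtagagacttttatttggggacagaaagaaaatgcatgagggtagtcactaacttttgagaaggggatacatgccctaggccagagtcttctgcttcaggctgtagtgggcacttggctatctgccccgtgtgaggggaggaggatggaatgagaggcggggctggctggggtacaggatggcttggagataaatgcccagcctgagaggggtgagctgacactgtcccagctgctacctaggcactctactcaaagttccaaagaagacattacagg

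Levels are CPM, counts relative to the total of the library after TMM scaling, which assumes that most genes do not differ. The libraries were made with a kit that reads the 3′ ends of polyadenylated transcripts, so levels are not divided by length and are compared here within a gene, not between genes. Ratios are given with their exact 95% counting interval in parentheses. Each condition had 1 library, so no spread between replicates and no p-value can be given, and each ratio compares 2 libraries rather than 2 conditions. A gene was called higher or lower when it was at least 1.2-fold apart with an interval that excluded no change. Total counts were 10720172 with TSA + phenamil, 9873894 with TSA, 11024227 in the senescent control and 10905230 in the young control. Messenger RNAs of the mitochondrial genome took 6.85% of counts with TSA + phenamil, 6.02% with TSA, 5.66% in the senescent control and 5.47% in the young control, a difference between the libraries whose part in the results was not tested. Stromal markers were present throughout (10 of 10 above 40 counts, among them Thy1 and Cd44). Their summed level, mostly Col1a1, was 43385 CPM with TSA + phenamil, 36069 CPM with TSA, 39008 CPM in the senescent control and 39243 CPM in the young control. In bulk RNA, fewer cells of a type and less RNA per cell cannot be told apart.

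Of the glycolytic enzymes and lactate carriers many were higher in the senescent than in the young control, and many were lower with TSA + phenamil than with TSA. In senescent against young control 17 of 38 genes were called higher, where 11.5% of all 12228 genes were, and 2 were called lower, where 11.6% of all genes were. With TSA against senescent control 5 were higher and 3 lower, against 9.78% and 9.79% of all genes. With TSA + phenamil against senescent control 0 were higher and 13 lower, against 10.3% and 9.93% of all genes. With TSA + phenamil against TSA 2 were higher and 17 lower, against 11.9% and 11.3% of all genes. The median log2 ratio over the 38 genes was 0.22 in senescent against young control, 0.09 with TSA against senescent control, -0.16 with TSA + phenamil against senescent control and -0.26 with TSA + phenamil against TSA, while the median over all genes lay between -0.0025 and 0.0047. With TSA + phenamil against young control 6 were higher and 4 lower, against 10.2% of all genes in each direction, and the median of 0.03 became -0.02 when counts were scaled by library totals. That scaling also ended the calls of Slc2a1, Ldha, Pfkfb3 and Hif1a as higher in TSA + phenamil against young control, of Vegfa as higher in TSA + phenamil against TSA, and of Eno1 and Higd1a as higher in senescent against young control. If cultures of 1 group were assumed to vary with a coefficient of variation of 0.1, the calls shrank to 4 higher in senescent against young control and 6 lower in TSA + phenamil against TSA, where 4.61% and 4.59% of all genes kept a call in that direction.

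**Figure D1:**
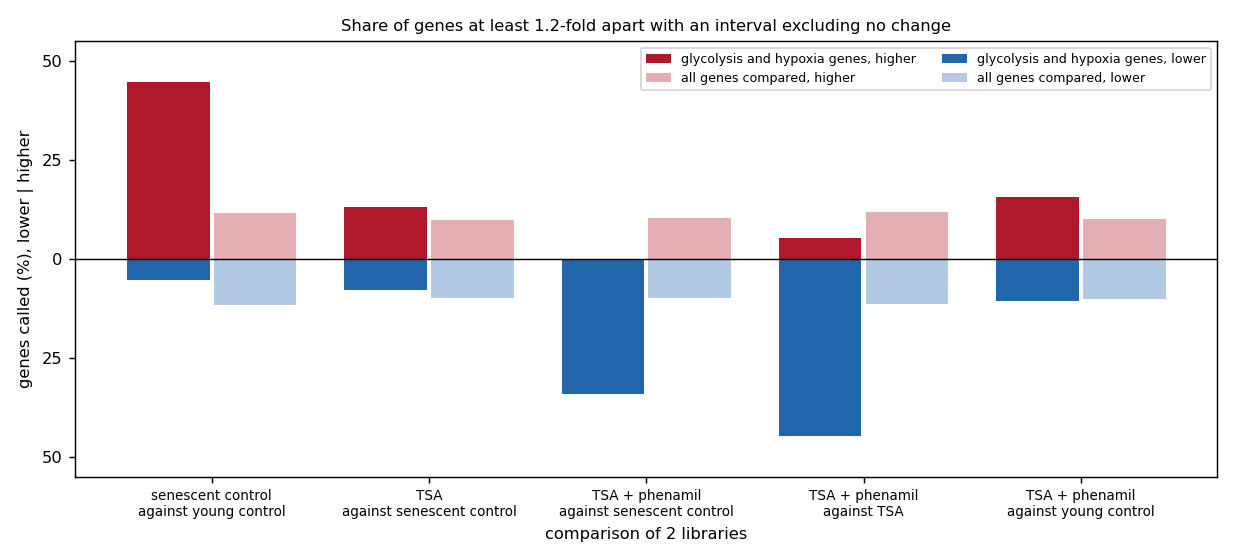
Share of genes called higher (upward bars) or lower (downward bars), in percent, in each comparison of 2 libraries, for the 38 glycolysis and hypoxia genes (full colour) and all 12228 genes compared (pale). The widest gaps are 17 of 38 higher in senescent against young control, and 13 and 17 of 38 lower in TSA + phenamil against senescent control and against TSA, while the higher bars also exceed those of all genes, by less, with TSA against senescent control (5 of 38) and TSA + phenamil against young control (6 of 38).

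Senescent against young control and TSA + phenamil against TSA have no library in common. Of the 17 genes called higher in the first and the 17 called lower in the second, 11 were the same genes, 64.7% of each list: Slc16a3, Pfkp, Tpi1, Pgk1, Pgam1, Eno1, Eno3, Ldha, Pdk1, Ddit4 and Higd1a, of which Eno1 and Higd1a left the first list when counts were scaled by library totals. Of all 12228 genes 380 (3.11%) did the same, which was 27.0% of the genes called higher in the first and 27.5% of those called lower in the second. No glycolysis or hypoxia gene was lower in the first and higher in the second, as 2.84% of all genes were. By level alone, 21 of the 38 genes had their 2 highest levels in the senescent control and the TSA library, against 20.7% of all genes, and 4 (Pdk2, Pdk3, Bnip3 and Kdm3a) had their 2 lowest there, against 20.2%. The other comparisons share the senescent control or the TSA + phenamil library with one another, so their directions are not separate observations.

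**Figure D2:**
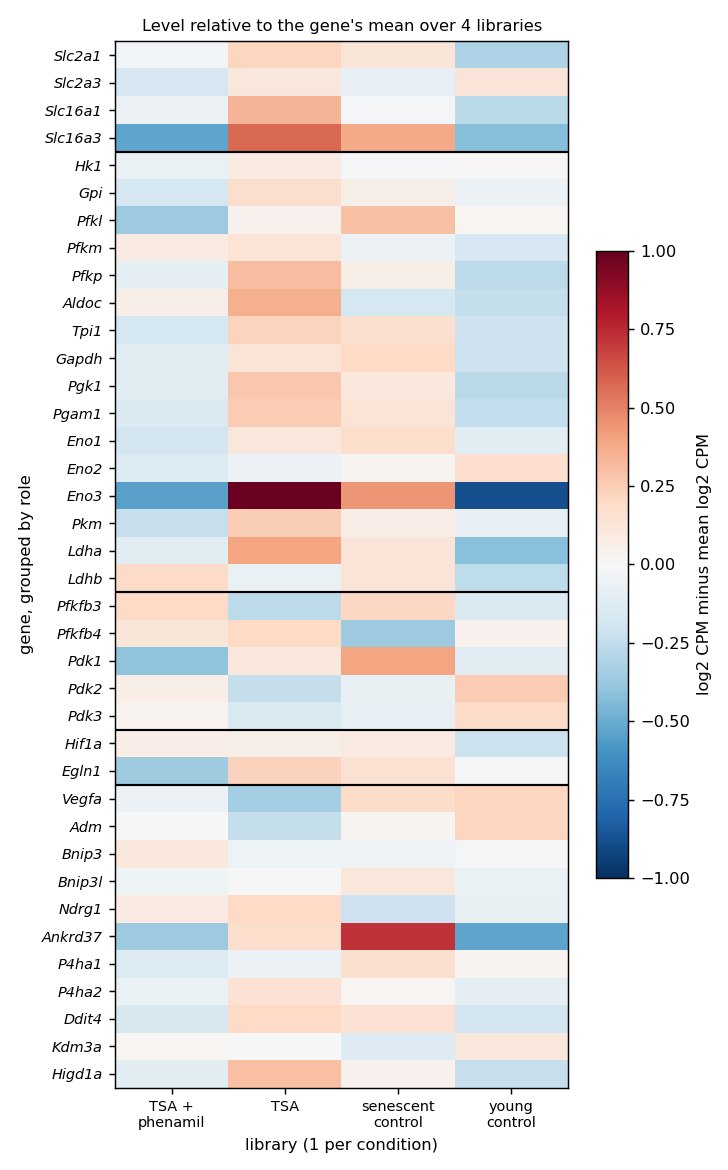
Level of each of the 38 genes in each library as log2 CPM minus the gene's mean log2 CPM over the 4 libraries (red above, blue below), in rows grouped by role and columns by library. Most rows of transporters and enzymes are red in the TSA and senescent control columns and blue in the TSA + phenamil and young control columns, with Eno3, Slc16a3 and Ankrd37 the most contrasted.

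Summed over their genes, the 18 listed glycolytic enzymes reached 2211 CPM with TSA + phenamil, 2827 CPM with TSA, 2654 CPM in the senescent control and 2252 CPM in the young control. As shares of all counts these were 0.217% with TSA + phenamil (exact binomial interval 0.214 to 0.219), 0.284% with TSA (0.281 to 0.287), 0.265% in the senescent control (0.262 to 0.268) and 0.229% in the young control (0.226 to 0.232). The intervals of the 4 libraries did not overlap, and like all intervals here they cover counting error only.

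Among the carriers that bring glucose in and let lactate out, the lactate exporter gene Slc16a3 (MCT4) differed most. Its level was 21.3 CPM with TSA + phenamil, 45.8 CPM with TSA, 39.9 CPM in the senescent control and 22.9 CPM in the young control. The TSA and senescent control libraries were high and the other libraries low, with no overlap between the counting intervals of these pairs. Slc16a3 was at 1.74 (1.49 to 2.04) in senescent against young control and at 0.466 (0.395 to 0.548) in TSA + phenamil against TSA, while TSA + phenamil against young control gave 0.932 (0.775 to 1.12). In the RefSeq table Slc16a3 overlaps the kinase gene Csnk1d, and since the use of strand in counting is not given, reads of overlapping genes may not be fully told apart. Csnk1d lay within 134.1 to 147.04 CPM in all 4 libraries, highest where Slc16a3 was lowest. The glucose carrier gene Slc2a1 (GLUT1) had 37.1 CPM with TSA + phenamil, 43.95 CPM with TSA, 41.2 CPM in the senescent control and 30.7 CPM in the young control. Young cells were lowest, and the call was higher in senescent against young control, at 1.34 (1.17 to 1.55), and also in TSA + phenamil against young control, at 1.21 (1.04 to 1.41). Slc16a1 (MCT1), a carrier of lactate and pyruvate in both directions, had 22.5 CPM with TSA + phenamil, 29.6 CPM with TSA, 23.2 CPM in the senescent control and 19.4 CPM in the young control. It was highest with TSA, at 1.28 (1.07 to 1.51) against senescent control, and at 0.758 (0.636 to 0.903) in TSA + phenamil against TSA. The other glucose carrier gene, Slc2a3 (GLUT3), had 53.2 CPM with TSA + phenamil, 64.8 CPM with TSA, 56.6 CPM in the senescent control and 65.5 CPM in the young control. Its highest level was in young cells, unlike the other carriers, and it was called lower in TSA + phenamil against TSA at 0.821 (0.732 to 0.921) and against young control at 0.812 (0.726 to 0.908).

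In the first steps of glycolysis, which spend ATP, the isoforms of one enzyme often differed in their calls. Hk1, the hexokinase that traps glucose in the cell, was called in no comparison, with ratios between 0.903 and 1.07. Hk2, the inducible hexokinase and a classical HIF target, had only 8 counts with TSA + phenamil, 3 with TSA, 3 in the senescent control and 14 in the young control, short of the 40 in all needed to be compared. With no filter on counts Hk2 was called lower in senescent against young control, where 8.6% of all genes were. That call rests on these 3 and 14 counts. Gpi, which turns glucose phosphate into fructose phosphate, had 115 CPM with TSA + phenamil, 146 CPM with TSA, 135 CPM in the senescent control and 124 CPM in the young control. Its only call was lower in TSA + phenamil against TSA, at 0.785 (0.726 to 0.848). Phosphofructokinase, the committed step, has 3 isoform genes, and their calls differed. The liver form Pfkl had 13.8 CPM with TSA + phenamil, 18.3 CPM with TSA, 21.8 CPM in the senescent control and 18.0 CPM in the young control, with the TSA + phenamil library lowest. It was called lower in TSA + phenamil against senescent control at 0.634 (0.512 to 0.782), against TSA at 0.753 (0.601 to 0.941) and against young control at 0.766 (0.614 to 0.953). In senescent against young control its ratio was 1.21 (0.998 to 1.47), close to that of Pfkp but with an interval that included no change. The platelet form Pfkp had 22.1 CPM with TSA + phenamil, 29.3 CPM with TSA, 24.6 CPM in the senescent control and 19.7 CPM in the young control, was higher in senescent against young control at 1.25 (1.04 to 1.496) and was lower in TSA + phenamil against TSA at 0.753 (0.631 to 0.898). The muscle form Pfkm was called in no comparison, with every interval including no change. Its span overlaps the protease gene Senp1. Aldoc, an aldolase best known from brain, had 15.3 CPM with TSA + phenamil, 18.9 CPM with TSA, 13.1 CPM in the senescent control and 12.5 CPM in the young control, highest with TSA, and was called higher there against senescent control at 1.44 (1.15 to 1.80). Aldoa, the main aldolase of most tissues, had 5, 2, 0 and 0 counts with TSA + phenamil, with TSA, in the senescent control and in the young control. In the RefSeq table its span overlaps another protein-coding locus, LOC103691235, listed here at 0 in all libraries, and 9 loci are named as its pseudogenes, so its level is uncertain.

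The steps from the triose phosphates to lactate held most of the enzymes called higher in senescent against young control. Tpi1, which interconverts the triose phosphates, had 141 CPM with TSA + phenamil, 185 CPM with TSA, 177 CPM in the senescent control and 138 CPM in the young control. Gapdh, which oxidises the triose and is widely used as a reference gene in PCR, had 110.2 CPM with TSA + phenamil, 130.3 CPM with TSA, 137 CPM in the senescent control and 103 CPM in the young control. Pgk1, which makes the first ATP of the pathway, had 366 CPM with TSA + phenamil, 474 CPM with TSA, 423 CPM in the senescent control and 326 CPM in the young control. For all 3 the senescent control and TSA libraries were the high pair and the young control was lowest. In senescent against young control the ratios were 1.29 (1.203 to 1.38) for Tpi1, 1.33 (1.23 to 1.43) for Gapdh and 1.30 (1.24 to 1.36) for Pgk1. In TSA + phenamil against TSA they were 0.762 (0.711 to 0.816) for Tpi1 and 0.771 (0.738 to 0.805) for Pgk1, both called, and 0.846 (0.781 to 0.916) for Gapdh, which fell short of 1.2-fold. Against senescent control, TSA + phenamil was called lower for Tpi1 at 0.795 (0.743 to 0.851) and Gapdh at 0.805 (0.745 to 0.869).

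Pgam1, the phosphoglycerate mutase, had 322 CPM with TSA + phenamil, 425 CPM with TSA, 392 CPM in the senescent control and 301 CPM in the young control, again with the senescent control and TSA libraries high. It was at 1.31 (1.25 to 1.37) in senescent against young control and at 0.758 (0.724 to 0.793) in TSA + phenamil against TSA. Pkm, the pyruvate kinase that makes the last ATP, had 255 CPM with TSA + phenamil, 354 CPM with TSA, 313 CPM in the senescent control and 282 CPM in the young control. In senescent against young control Pkm was at 1.11 (1.05 to 1.16), short of a call, and it was called lower in TSA + phenamil against senescent control at 0.815 (0.774 to 0.857) and against TSA at 0.719 (0.683 to 0.756). Ldha, the subunit that favours lactate formation, had 87.2 CPM with TSA + phenamil, 124 CPM with TSA, 103 CPM in the senescent control and 70.6 CPM in the young control. The TSA library was highest, the senescent control next, and the counting intervals of the 4 levels did not overlap. Its ratio was 1.46 (1.33 to 1.60) in senescent against young control, 1.202 (1.11 to 1.30) in TSA against senescent control, just past the size needed, and 0.703 (0.645 to 0.767) in TSA + phenamil against TSA. Ldha was also called higher in TSA + phenamil against young control, at 1.24 (1.12 to 1.36), a call that ended with scaling by library totals. Ldhb, the subunit that favours the reverse reaction, had 19.3 CPM with TSA + phenamil, 16.2 CPM with TSA, 18.5 CPM in the senescent control and 14.2 CPM in the young control. It was lowest in young cells and was called higher against young control in senescent control cells at 1.30 (1.05 to 1.61) and in TSA + phenamil cells at 1.36 (1.10 to 1.68), with no call between senescent libraries. Processed pseudogenes of several of these enzymes are known, 81 loci being named as such for Gapdh, 31 for Eno1, 30 for Ldha and 19 for Pkm in the RefSeq table. The sources used here do not say how reads that fit several loci were counted, so absolute levels of these genes are uncertain.

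The 3 enolases, which make phosphoenolpyruvate, differed from one another. Eno3, the form known from skeletal muscle, had 41.5 CPM with TSA + phenamil, 120.1 CPM with TSA, 82.3 CPM in the senescent control and 32.9 CPM in the young control. The TSA library was highest, the senescent control second, and the 4 counting intervals were apart. Eno3 was at 2.50 (2.21 to 2.83) in senescent against young control, 1.46 (1.34 to 1.59) in TSA against senescent control, 0.504 (0.449 to 0.566) in TSA + phenamil against senescent control and 0.346 (0.309 to 0.386) in TSA + phenamil against TSA. The last is the lowest ratio among the 38 genes in any of the 5 comparisons, and the first is the highest. Against young control, TSA + phenamil was called higher for Eno3, at 1.26 (1.10 to 1.45). Eno1, the form of most tissues, had 228 CPM with TSA + phenamil, 279 CPM with TSA, 291 CPM in the senescent control and 241 CPM in the young control, with ratios of 1.21 (1.15 to 1.27) in senescent against young control and 0.817 (0.773 to 0.863) in TSA + phenamil against TSA. Eno2, best known from neurons, had 377 CPM with TSA + phenamil, 399 CPM with TSA, 423 CPM in the senescent control and 468 CPM in the young control, and was highest in young cells, with a call only in TSA + phenamil against young control at 0.807 (0.774 to 0.841). The gene Spag7, which overlaps Eno3 in the RefSeq table, lay between 40.7 and 47.3 CPM in the 4 libraries. Of 13 skeletal muscle markers 4 reached 40 counts in all, Acta1, Ckm, Tnnt3 and Tnnc2. Ckm had 11 counts with TSA + phenamil, 18 with TSA, 2 in the senescent control and 12 in the young control. Tnnc2 had 26 counts with TSA + phenamil, 29 with TSA, 7 in the senescent control and 30 in the young control, so both were lowest in the senescent control, where Eno3 was second highest. Both were called higher in TSA against senescent control, as Eno3 was. They were called lower in senescent against young control and higher in TSA + phenamil against senescent control, where Eno3 went the other way. Acta1 was called higher in senescent against young control at 1.32 (1.16 to 1.495), as Eno3 was, lower in TSA against senescent control at 0.669 (0.585 to 0.765) and higher in TSA + phenamil against TSA at 1.41 (1.23 to 1.62), where Eno3 went the other way. In TSA + phenamil against young control Acta1 was called higher, as Eno3 was. Tnnt3 had no call. The summed muscle list, mostly Acta1, was 58.7 CPM with TSA + phenamil, 46.4 CPM with TSA, 56.9 CPM in the senescent control and 48.9 CPM in the young control. The sum was lowest in the TSA library, where Eno3 was highest. As shares of all counts, its intervals overlapped for TSA (0.00424 to 0.00510%) and young control (0.00456 to 0.00541%), so their order is not resolved. The part of muscle transcripts in the Eno3 values was not tested.

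**Figure D3:**
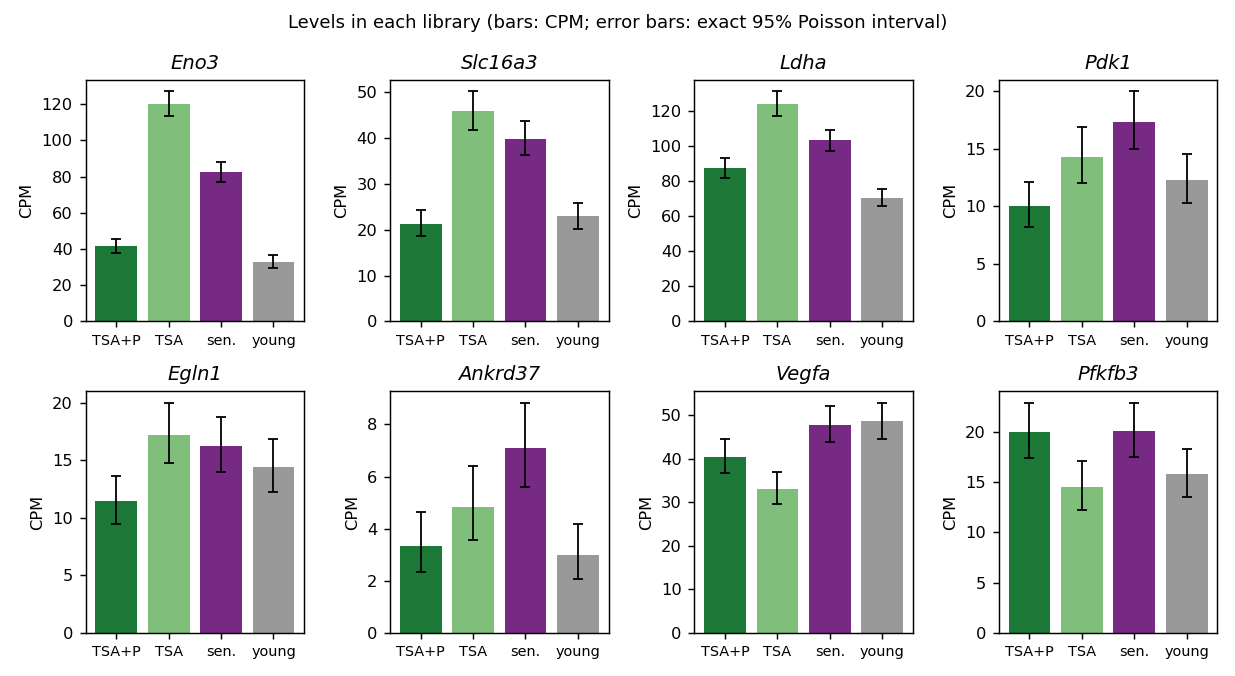
Levels of 8 genes in CPM (vertical axis, from 0) in the TSA + phenamil (TSA+P), TSA, senescent control (sen.) and young control libraries, with 1 library per bar and exact 95% Poisson intervals as error bars. Eno3, Slc16a3 and Ldha are highest with TSA and in the senescent control, Ankrd37 and Pdk1 are highest in the senescent control, Egln1 is lowest with TSA + phenamil, and Vegfa and Pfkfb3 are lowest with TSA.

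Kinases that set the flow into and out of glycolysis did not move as 1 group. Pfkfb3 makes fructose-2,6-bisphosphate, the activator of phosphofructokinase, and had 20.0 CPM with TSA + phenamil, 14.5 CPM with TSA, 20.1 CPM in the senescent control and 15.8 CPM in the young control. It was low in the TSA library and in young cells. Pfkfb3 was called higher in senescent against young control at 1.27 (1.04 to 1.56), lower in TSA against senescent control at 0.724 (0.582 to 0.897) and higher in TSA + phenamil against TSA at 1.38 (1.11 to 1.72), the opposite of most enzymes in the last comparison. It was also higher in TSA + phenamil against young control, at 1.27 (1.03 to 1.56). The related Pfkfb4 had 12 to 16 counts in every library and no call. Pyruvate dehydrogenase kinases switch off the entry of pyruvate into the citric acid cycle. Pdk1, the HIF-induced kinase, had 9.999 CPM with TSA + phenamil, 14.3 CPM with TSA, 17.3 CPM in the senescent control and 12.3 CPM in the young control. The senescent control was highest and TSA + phenamil lowest, with ratios of 1.41 (1.13 to 1.78) in senescent against young control, 0.577 (0.450 to 0.735) in TSA + phenamil against senescent control and 0.698 (0.538 to 0.905) in TSA + phenamil against TSA. Pdk2 had 15.9 CPM with TSA + phenamil, 12.9 CPM with TSA, 14.4 CPM in the senescent control and 18.1 CPM in the young control, and Pdk3 had 30.9 CPM with TSA + phenamil, 27.0 CPM with TSA, 28.4 CPM in the senescent control and 34.3 CPM in the young control. Both were highest in young cells and lowest with TSA, and they were the only 2 of the 38 genes called lower in senescent against young control, at 0.797 (0.643 to 0.986) for Pdk2 and 0.827 (0.710 to 0.963) for Pdk3. Pdk4, a kinase induced by fasting and glucocorticoids, was at 0 counts throughout, and the limit this allows is 0.302 CPM with TSA and lower in the other libraries.

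Of the oxygen sensing genes, Hif1a, the alpha subunit itself, had 22.5 CPM with TSA + phenamil, 22.4 CPM with TSA, 22.9 CPM in the senescent control and 18.5 CPM in the young control. The 3 senescent libraries lay close together and above the young control, and Hif1a was called higher in senescent against young control at 1.24 (1.03 to 1.496) and in TSA + phenamil against young control at 1.22 (1.004 to 1.47). HIF-1 alpha is mainly controlled as a protein, which was not measured here. Egln1 (PHD2), the hydroxylase that marks HIF-1 alpha for destruction and is itself a HIF target, had 11.4 CPM with TSA + phenamil, 17.2 CPM with TSA, 16.3 CPM in the senescent control and 14.4 CPM in the young control. It was lowest with TSA + phenamil, at 0.703 (0.553 to 0.891) against senescent control and 0.663 (0.520 to 0.842) against TSA, and its senescent and young controls did not differ by the rule, at 1.13 (0.905 to 1.40). Egln3 (PHD3), another hydroxylase with strong induction under hypoxia, had 0 counts in all 4 libraries.

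**Figure D4:**
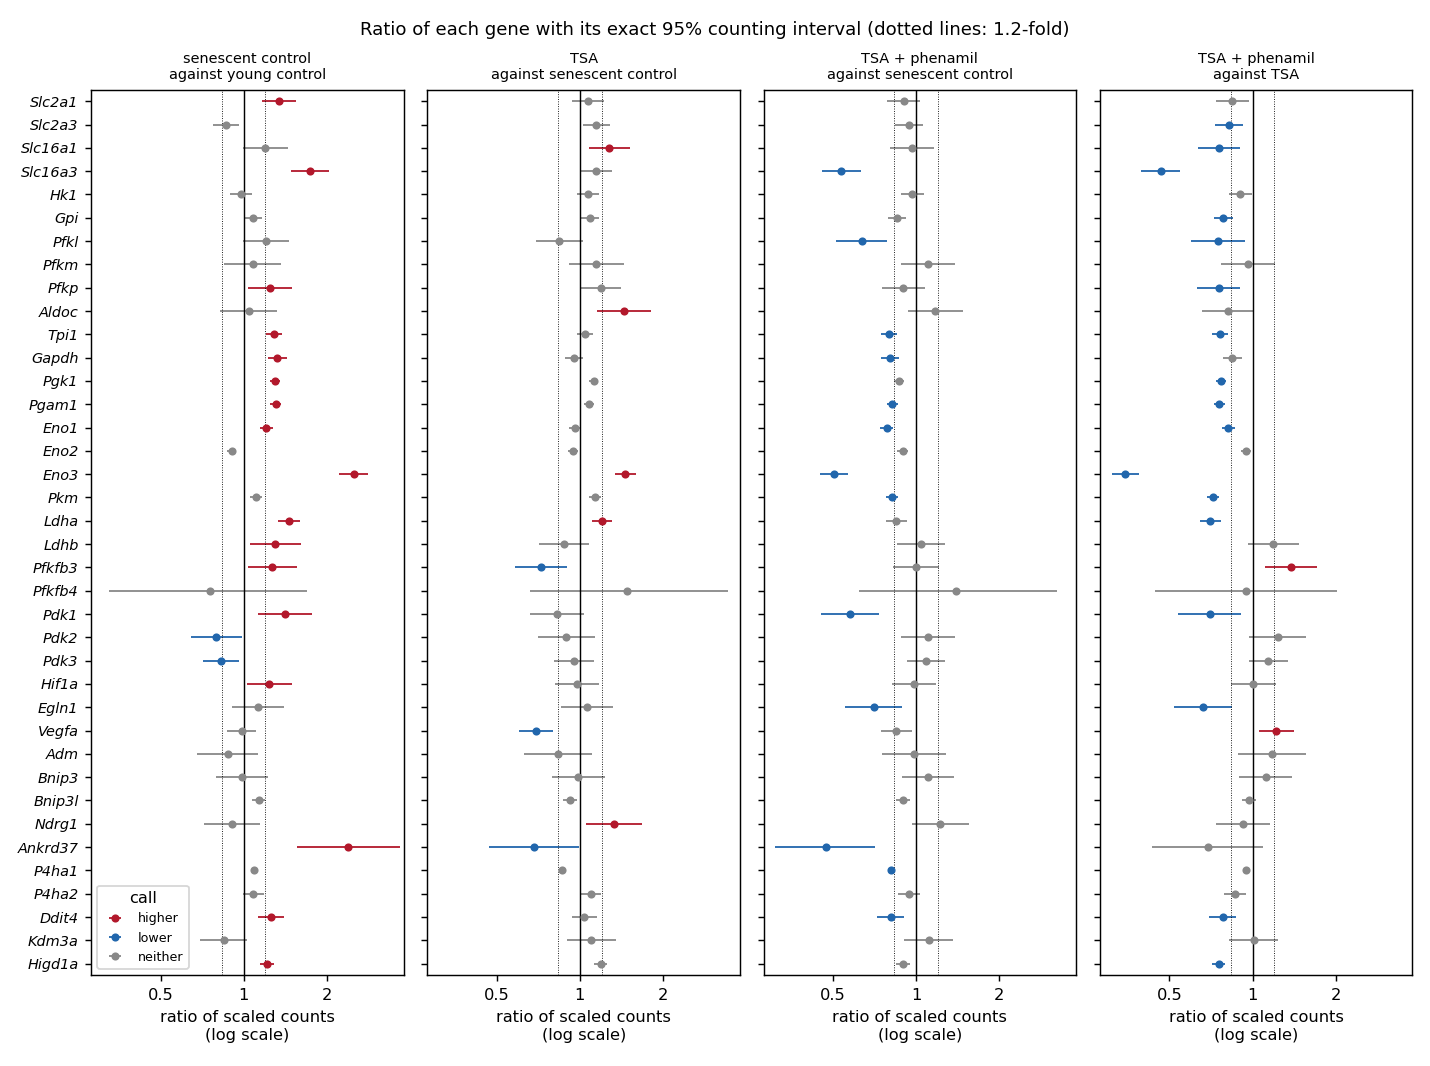
Ratio of scaled counts of each of the 38 genes (rows, by role as in the text) in 4 comparisons of 2 libraries, on a log axis, with exact 95% counting intervals as bars, red for called higher, blue for called lower and grey for neither. Red points prevail in senescent against young control, where 17 genes are red and 2 blue, and blue points in TSA + phenamil against TSA, where 17 are blue and 2 red.

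The other hypoxia response genes were split. Ankrd37, an ankyrin repeat protein gene used in signatures of hypoxia, had 3.33 CPM with TSA + phenamil, 4.84 CPM with TSA, 7.08 CPM in the senescent control and 2.98 CPM in the young control. The senescent control was highest, and the level rests on 35 counts with TSA + phenamil, 48 with TSA, 78 in the senescent control and 33 in the young control. Its ratio was 2.38 (1.57 to 3.69) in senescent against young control, 0.683 (0.467 to 0.991) in TSA against senescent control and 0.471 (0.306 to 0.710) in TSA + phenamil against senescent control, all called. Lrp2bp, which overlaps Ankrd37 in the RefSeq table, had 6, 17, 19 and 43 counts in the order TSA + phenamil, TSA, senescent control and young control. Ddit4 (REDD1), an inhibitor of the growth kinase mTORC1 that also responds to stress and glucocorticoids, had 54.9 CPM with TSA + phenamil, 70.5 CPM with TSA, 68.1 CPM in the senescent control and 54.3 CPM in the young control. Higd1a, a small protein of the inner mitochondrial membrane, had 210.4 CPM with TSA + phenamil, 279 CPM with TSA, 235 CPM in the senescent control and 193 CPM in the young control. Both were highest in the TSA and senescent control libraries, as Tpi1, Pgk1 and Pgam1 were. Ddit4 was at 1.25 (1.13 to 1.40) in senescent against young control and 0.780 (0.697 to 0.872) in TSA + phenamil against TSA, and Higd1a was at 1.21 (1.15 to 1.29) and 0.754 (0.712 to 0.797) in the same comparisons.

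Vegfa, the main growth factor for blood vessels, went another way. Its level was 40.5 CPM with TSA + phenamil, 33.2 CPM with TSA, 47.8 CPM in the senescent control and 48.7 CPM in the young control. The senescent and young controls did not differ by the rule, at 0.983 (0.870 to 1.11), and TSA was lowest, at 0.693 (0.602 to 0.797) against senescent control. In TSA + phenamil it was higher than with TSA, at 1.22 (1.05 to 1.41), and lower than in young control, at 0.831 (0.730 to 0.946). P4ha1, the catalytic subunit of collagen prolyl hydroxylase, had 1258 CPM with TSA + phenamil, 1332 CPM with TSA, 1548 CPM in the senescent control and 1414 CPM in the young control. With TSA + phenamil it was called lower than in the senescent control, at 0.813 (0.795 to 0.832), and its ratio of 1.09 (1.07 to 1.12) in senescent against young control excluded no change without reaching 1.2-fold. P4ha2, a second such subunit, was called in no comparison, with levels from 85.4 to 101.3 CPM. Ndrg1, a gene strongly induced by hypoxia in many cells, had 15.3 CPM with TSA + phenamil, 16.6 CPM with TSA, 12.5 CPM in the senescent control and 13.8 CPM in the young control, and was called only in TSA against senescent control, higher at 1.33 (1.05 to 1.68). Adm, which encodes the vasodilator adrenomedullin, had levels from 9.07 to 12.4 CPM and no call. No call was made either for the mitophagy receptor genes Bnip3, from 15.4 to 17.2 CPM, and Bnip3l, from 220.2 to 249.95 CPM, or for the histone demethylase gene Kdm3a, from 17.6 to 20.8 CPM. In all, 30 of the 38 genes had a call in at least 1 of the 5 comparisons, where 55.7% of all 12228 genes had one, and 8 had none.

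Other HIF target genes, from a list of 37 of which 32 had enough counts, had calls in both directions. In senescent against young control 6 were higher and 2 lower, where 11.5% and 11.6% of all genes were, and in TSA + phenamil against TSA 2 were higher and 3 lower, where 11.9% and 11.3% were, so these counts lay near or below the shares of all genes except the 6. The median log2 ratios were 0.02 in senescent against young control and -0.08 in TSA + phenamil against TSA. With TSA against senescent control 4 were higher and 2 lower, where 9.78% and 9.79% of all genes were. With TSA + phenamil against senescent control 2 were higher and 2 lower, where 10.3% and 9.93% were. Lox, which crosslinks collagen, had 1530 CPM with TSA + phenamil, 2152 CPM with TSA, 2033 CPM in the senescent control and 1638 CPM in the young control, and Fam162a, a mitochondrial protein gene, had 178 CPM with TSA + phenamil, 244 CPM with TSA, 190.4 CPM in the senescent control and 153 CPM in the young control. Car9, the carbonic anhydrase that disposes of acid outside hypoxic cells, had 55.3 CPM with TSA + phenamil, 80.9 CPM with TSA, 66.5 CPM in the senescent control and 55.3 CPM in the young control. In these 3 genes the senescent control and TSA libraries were the high pair, as in Tpi1, Pgk1 and Ldha. Their ratios in TSA + phenamil against TSA were 0.711 (0.697 to 0.726) for Lox, 0.727 (0.684 to 0.772) for Fam162a and 0.684 (0.614 to 0.762) for Car9. Pgf, a relative of Vegfa, ran the other way with 23.6 CPM with TSA + phenamil, 11.9 CPM with TSA, 21.1 CPM in the senescent control and 27.3 CPM in the young control, lowest with TSA as Vegfa was. Igfbp3, which binds insulin-like growth factors, was lowest in the senescent control, at 0.429 (0.288 to 0.627) against young control and 2.07 (1.40 to 3.11) in TSA + phenamil against senescent control. The antioxidant enzyme gene Hmox1 was called only with TSA against senescent control, at 1.33 (1.26 to 1.41). Epo had 0 counts in every library.

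Regulators of the HIF pathway, of which 14 of 15 had enough counts, had 3 called higher and 2 lower in senescent against young control, and 1 higher and 3 lower with TSA against senescent control. The shares of all genes were 11.5% and 11.6% in the first comparison and 9.78% and 9.79% in the second. With TSA + phenamil 1 was higher and 1 lower against senescent control, and 3 were higher and 3 lower against TSA. Of all genes 10.3% were higher and 9.93% lower against senescent control, and 11.9% higher and 11.3% lower against TSA. The median log2 ratios of this list, in that order of comparisons, were 0.02, -0.13, -0.004 and 0.05. Epas1, the HIF-2 alpha gene, was called lower with TSA against senescent control at 0.751 (0.660 to 0.853) and higher in TSA + phenamil against TSA at 1.42 (1.25 to 1.61). Vhl, which encodes the ligase subunit that recognises hydroxylated HIF alpha, was called lower with TSA + phenamil against senescent control at 0.802 (0.707 to 0.910). The coactivator genes Crebbp and Ep300 were lower in senescent against young control, at 0.756 (0.706 to 0.809) and 0.723 (0.613 to 0.851). Eloc, a partner of the VHL protein, was highest with TSA, at 1.54 (1.39 to 1.72) against senescent control. Hif3a had 0 counts in all libraries.

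Routes that take glucose carbon onward had small lists, and their counts are to be read against shares of all genes between 9.78% and 11.9% in each direction and comparison. For pyruvate dehydrogenase and the pyruvate carriers (9 genes) 3 were higher and 1 lower in senescent against young control, among them the catalytic subunit gene Pdha1 at 1.36 (1.22 to 1.53) and the carrier gene Mpc1 at 1.36 (1.18 to 1.57). No gene of this list was called in TSA + phenamil against TSA, and 2 were higher with TSA against senescent control and 2 with TSA + phenamil against senescent control. In TSA + phenamil against young control 4 were higher (Pdha1, Pdp1, Mpc1 and Mpc2) and 0 lower, where 10.2% of all genes were called in each direction. Dlat, the acetyl-transferring subunit, was lowest in the senescent control, with 9.81 CPM with TSA + phenamil, 8.37 CPM with TSA, 5.81 CPM in the senescent control and 8.29 CPM in the young control. Of 17 citric acid cycle genes 3 were higher in senescent against young control, 4 were higher and 1 lower with TSA against senescent control, 2 were higher and 1 lower with TSA + phenamil against senescent control, and 1 was lower in TSA + phenamil against TSA. That 1 was Idh3a, a subunit of isocitrate dehydrogenase, at 0.830 (0.727 to 0.946). In TSA + phenamil against young control 5 of the 17 were higher and 0 lower. None of 8 pentose phosphate genes was called in senescent against young control, and 2 were higher and 2 lower in TSA + phenamil against young control. In this pathway, which supplies NADPH and ribose, Pgd was called higher with TSA against senescent control at 1.204 (1.16 to 1.25) and lower in TSA + phenamil against TSA at 0.800 (0.771 to 0.830), while Tkt was higher with TSA + phenamil against senescent control at 1.33 (1.25 to 1.42) and H6pd, the enzyme of the endoplasmic reticulum, was lower with TSA at 0.649 (0.552 to 0.761) and with TSA + phenamil at 0.715 (0.613 to 0.833).

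Of 13 glycogen genes with enough counts, 4 were higher and 1 lower in senescent against young control, and 3 were lower and none higher in TSA + phenamil against TSA. Of all genes 11.5% were higher and 11.6% lower in the first comparison, and 11.9% higher and 11.3% lower in the second. Pygl, a phosphorylase that releases glucose units from glycogen, had 31.5 CPM with TSA + phenamil, 42.2 CPM with TSA, 41.8 CPM in the senescent control and 31.1 CPM in the young control, and Pgm1, which passes them towards glycolysis, had 34.8 CPM with TSA + phenamil, 45.3 CPM with TSA, 46.3 CPM in the senescent control and 44.1 CPM in the young control. Both were lowest with TSA + phenamil among the senescent libraries. Of 15 genes with enough counts at other steps and side branches of glycolysis, 4 were higher and 2 lower in senescent against young control and 1 was higher in TSA + phenamil against TSA. That gene, the glucose carrier Slc2a12, had 19.1 CPM with TSA + phenamil, 9.17 CPM with TSA, 13.7 CPM in the senescent control and 20.6 CPM in the young control, low where Slc16a3 was high. Gpd2, of the glycerol phosphate shuttle, was at 1.47 (1.24 to 1.73) in senescent against young control and 0.807 (0.688 to 0.945) in TSA + phenamil against senescent control. Glucocorticoid targets, set beside Ddit4 because osteogenic media often hold dexamethasone, had 1 of 6 higher in senescent against young control which was Fkbp5 at 1.31 (1.07 to 1.61), and in TSA + phenamil against TSA Klf9 was higher at 1.26 (1.16 to 1.36) and Sgk1 lower at 0.648 (0.549 to 0.763).

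Markers of endothelial, blood and fat cells were at or near 0. Of the endothelial list Pecam1, Emcn and Vwf had 0 counts, and the 6 genes together had at most 4 counts in any library. Of 7 haematopoietic and macrophage markers Adgre1, Itgam and Lyz2 had 0 counts and only Cd14 passed 40. The summed level of that list was 9.24 CPM with TSA + phenamil, 9.27 CPM with TSA, 5.81 CPM in the senescent control and 5.14 CPM in the young control, so TSA + phenamil and TSA were alike in it. As shares of all counts, its interval with TSA (0.000751 to 0.00114%) lay above that of the senescent control (0.000447 to 0.000741%). That with TSA + phenamil (0.000734 to 0.00110%) overlapped the latter. Cd14 was called higher in TSA against senescent control and in TSA + phenamil against young control, and had no other call. The erythroid list stayed at or below 2.12 CPM and the adipocyte list at or below 1.14 CPM, with Hbb and Lep at 0. Neural markers, mostly Map2, which other cells express too, summed to 65.1 CPM with TSA + phenamil, 67.04 CPM with TSA, 74.8 CPM in the senescent control and 62.3 CPM in the young control. Cartilage markers, mostly Acan, summed to 471.8 CPM with TSA + phenamil, 469.2 CPM with TSA, 540.5 CPM in the senescent control and 500.2 CPM in the young control. Both lists were highest in the senescent control. As shares of all counts, the neural intervals of senescent control (0.00697 to 0.00800%) and TSA (0.00623 to 0.00727%) overlapped, so their order is not resolved. Map2 was called higher in senescent against young control at 1.24 (1.12 to 1.39) and lower in TSA + phenamil against senescent control at 0.804 (0.721 to 0.896), and Sox9 likewise at 1.43 (1.27 to 1.62) and 0.817 (0.724 to 0.922), the directions of the glycolytic enzymes called there. Gfap, the other neural marker with enough counts, had no call in the first comparison and was called higher in the second. No other cartilage marker was called in either. Osteoblast markers were at 0 throughout for Sp7 and Ibsp, and Bglap had 0 counts with TSA + phenamil, 0 with TSA, 2 in the senescent control and 2 in the young control. That list, mostly Runx2 and Alpl, summed to 45.2 CPM with TSA + phenamil, 33.3 CPM with TSA, 39.04 CPM in the senescent control and 44.4 CPM in the young control. It was lowest with TSA, where the summed glycolytic enzymes were highest. As shares of all counts its intervals were 0.00404 to 0.00485% with TSA + phenamil, 0.00299 to 0.00372% with TSA, 0.00354 to 0.00429% in the senescent control and 0.00413 to 0.00494% in the young control. The intervals of TSA + phenamil, senescent control and young control overlapped, so their order is not resolved. The interval of TSA lay below those of TSA + phenamil and young control. It overlapped that of the senescent control, so the order of TSA and senescent control is not resolved either. Runx2 was called lower in senescent against young control at 0.732 (0.612 to 0.876), and in TSA + phenamil against TSA Runx2 was higher at 1.37 (1.12 to 1.67) and Alpl higher at 1.36 (1.10 to 1.67). The part of these marker differences in the results was not tested.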

How the data were processed

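RNA was measured in 4 libraries, 1 per condition. Per the labels' protocols, RNA was extracted with TRIzol and made into 3′ end libraries (Lexogen QuantSeq, forward kit). STAR 2.7.10b, HTSeq 2.0.2 and mRatBN7.2 are named in the submitters' processing notes, without roles. The sources used here do not give the annotation, strand setting or treatment of multiply mapping reads. The deposited counts are raw whole numbers per gene, per the file headers. The deposited log2 values are normalized data, per the file headers, and each equalled log2 of the scaled count plus 1 within 0.000532.

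Counts were scaled by TMM (edgeR 4.0.16, R 4.3.3) over genes with at least 40 counts (35.9% of genes). A quasi-likelihood test was not possible with 1 library per group. Ratios carry exact conditional binomial (Clopper-Pearson) 95% intervals computed with scipy 1.17.1 under Python 3.11.15. Plots used matplotlib 3.10.9. Log2 ratios used a prior count of 0.5. Reads carried no stated molecular identifiers and need not be independent molecules, so intervals and floors (3 counts for a count of 0) cover counting error only. The calling rule was tested on simulated counts with counting error only, the error its intervals assume. Variation between cultures was left out, so this test cannot show how the rule fares with it. Each of the 38 genes with a call in at least 1 comparison is given in every library. Examples from the 8 other lists are among up to 3 per comparison and direction with at least 100 counts, taken by how far the closer limit of the interval lay from 1, and the 9 marker lists are given as sums. Single markers and genes at 0 were named after their values were seen. The genes, lists and comparisons were chosen with earlier results of these data known. Gene spans, pseudogene names and promoter windows come from RefSeq GRCr8, a different build, in which 93.1% of identifiers were found. Alternatives included DESeq2 1.42.0 size factors, library totals, other filters, sizes and errors, and the deposited log2 values.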

Additional observations from a re-analysis of the deposited data

How the results depend on the processing

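Scaling by DESeq2 size factors or by TMM without these genes, no filter, and a filter of 200 counts left every count of called genes within 1.5 times its value, and no median changed sign under them or with the deposited log2 values. Scaling by library totals gave 1 gene instead of 2 higher in TSA + phenamil against TSA and 2 instead of 6 higher in TSA + phenamil against young control, where the median log2 ratio was -0.0215 instead of 0.03. The size and error that a call needs mattered more. Counting any ratio whose interval excluded no change gave 4 lower in senescent against young control (16.7% of all genes), 14 higher and 6 lower with TSA against senescent control (15.7% and 14.7%), and 20 lower with TSA + phenamil against senescent control (15.9%). At 1.5-fold, where 3.56% to 4.94% of all genes were called in each direction and comparison, 3 were higher and 0 lower in senescent against young control (Slc16a3, Eno3 and Ankrd37), 0 and 0 with TSA against senescent control, 5 lower with TSA + phenamil against senescent control, 0 higher and 3 lower in TSA + phenamil against TSA (Slc16a3, Eno3 and Egln1), and 0 and 0 in TSA + phenamil against young control. Assuming that cultures vary with a coefficient of variation of 0.1, which left 3.66% to 5.16% of all genes called in each direction and comparison, 4 were higher and 0 lower in senescent against young control, 2 and 1 with TSA against senescent control, 5 lower with TSA + phenamil against senescent control, 0 higher and 6 lower in TSA + phenamil against TSA, and 0 and 0 in TSA + phenamil against young control. Of 950 values of single genes recomputed under other scalings, a prior count of 2 or the deposited log2 values, 948 stayed within their counting interval, 2 moved further (P4ha1, by library totals) and none with a call changed sign. No paired analysis was possible because each group has 1 library. Depth limits Pfkfb4 and Ankrd37 most, with 60 and 194 counts in all, and the variation between cultures was not measured.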
